A study of Homo sapiens with 8 samples.

Results

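HSD17B10, AKIRIN1, CDC42EP1, SEMA7A, TMED4, DYNLL2 and TMEM181 are 7 of the 59385 gene symbols counted in immortalized human cardiac fibroblasts after knockdown of EIF4G2. They were taken because their counts differed between the knockdown and the scramble columns and because they belong to none of the larger pathways examined in these cells. The choice came with no stated cutoff. All differences between knockdown and scramble cells in these genes are therefore descriptions, given with a standard error and without a p-value. All 7 passed the filter on low counts, which left 16228 tested genes, and their counts per library ran from 193 to 8182.

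Total and polysomal RNA, enriched for poly(A), was sequenced from the line IHCF, cultured human heart fibroblasts that divide indefinitely. The cells carried a lentiviral hairpin, either eIF4G2 shRNA or scramble shRNA. Each of the 4 groups, knockdown polysome, scramble polysome, knockdown total and scramble total, held 2 libraries that the labels call biological replicates. No label ties them to different cultures. The p-values therefore reflect library-to-library spread that may be technical. Cells of both hairpins had spent 6 h or longer in serum-free medium before TGFb was given for 24 h, so that every group is a TGFb-treated one. The labels give neither the number of hairpins against eIF4G2 nor a rescue, so effects of the shRNA on other targets and effects of less EIF4G2 cannot be told apart.

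EIF4G2 (DAP5) belongs to the scaffold proteins of translation initiation. It resembles EIF4G1 but lacks the part that binds the cap-binding protein eIF4E. Ribosomes that load onto 1 mRNA form a polysome, and the RNA in polysomes is read against total RNA to see which mRNAs are being translated. The 7 genes have no common pathway. HSD17B10 is a mitochondrial dehydrogenase of isoleucine breakdown and a subunit of the mitochondrial RNase P that trims transfer RNAs. AKIRIN1 is a small nuclear protein, known in the mouse to promote muscle differentiation. CDC42EP1 binds the small GTPase CDC42 and septins and shapes the cytoskeleton. SEMA7A is a semaphorin held to the membrane by a lipid anchor, and it signals through integrins and plexin C1. TMED4 belongs to the p24 family, which sorts cargo between the endoplasmic reticulum and the Golgi. DYNLL2 is a light chain shared by dynein and myosin V. TMEM181 is a membrane protein that was identified as a host factor for a bacterial toxin.

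The upstream windows of 4 of the genes are shown. The RefSeq promoter table (GRCh38.p14) matched 5 of the 7 symbols, HSD17B10, AKIRIN1, CDC42EP1, SEMA7A and TMEM181. The window of TMEM181 is not shown, because most of it lies within that gene in GENCODE release 29. Each window shown runs up to 250 bases before the RefSeq start and stops before the gene begins in GENCODE release 29. Letters are in the gene's direction, and capitals mark matches on either strand to the GC box (GGGCGG), the CCAAT box (CCAAT), the TATA box (TATAAA), the ETS core (CGGAAG), the AP-1 site (TGANTCA) or the E-box (CACGTG). None of these motifs contains another, and adjoining matches form 1 run of capitals.
HSD17B10, chrX:53434377-53434626, minus strand: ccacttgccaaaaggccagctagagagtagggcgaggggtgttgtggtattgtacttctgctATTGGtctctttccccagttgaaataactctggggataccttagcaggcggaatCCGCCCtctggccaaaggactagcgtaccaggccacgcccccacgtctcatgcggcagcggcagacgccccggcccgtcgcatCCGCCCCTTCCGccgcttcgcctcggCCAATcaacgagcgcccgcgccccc
AKIRIN1, chr1:38991026-38991222, plus strand: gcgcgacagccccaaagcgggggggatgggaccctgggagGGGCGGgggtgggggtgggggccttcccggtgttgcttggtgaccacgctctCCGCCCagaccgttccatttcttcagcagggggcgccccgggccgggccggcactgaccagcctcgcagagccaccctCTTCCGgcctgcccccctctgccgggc
CDC42EP1, chr22:37560230-37560446, plus strand: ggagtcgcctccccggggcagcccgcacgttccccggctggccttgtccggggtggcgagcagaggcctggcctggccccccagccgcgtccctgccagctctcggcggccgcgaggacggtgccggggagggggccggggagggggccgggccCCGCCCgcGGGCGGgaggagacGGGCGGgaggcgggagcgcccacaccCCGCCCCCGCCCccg
SEMA7A, chr15:74433959-74434208, minus strand: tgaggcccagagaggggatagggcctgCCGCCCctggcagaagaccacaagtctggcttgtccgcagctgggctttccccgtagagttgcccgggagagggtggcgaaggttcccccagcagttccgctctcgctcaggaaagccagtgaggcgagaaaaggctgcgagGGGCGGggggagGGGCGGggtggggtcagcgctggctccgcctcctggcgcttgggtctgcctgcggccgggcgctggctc
GC content of these windows was 63.2% for HSD17B10, 74.6% for AKIRIN1, 83.9% for CDC42EP1 and 70% for SEMA7A. Over the full 250 bases, all 5 genes of the table had a GC box, as did 42.3% of the 27305 promoters in the table. An ETS core was found in 3 of the 5 (HSD17B10, AKIRIN1 and TMEM181), against 16.8% of all promoters. HSD17B10 alone among the 5 had a CCAAT box, found in 33% of all promoters. An E-box stood in TMEM181, the gene that was lower in knockdown cells, and in 6.49% of all promoters. Over the full 250 bases, the windows of AKIRIN1, CDC42EP1 and TMEM181 run into the annotated gene, that of TMEM181 for most of its length. Matches in those stretches may lie in transcribed sequence. TATA boxes and AP-1 sites matched in 0 of the 5 windows, against 11.1% and 6.6% of all promoters. A match describes letters and does not show that a factor binds.

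EIF4G2 was measured first as the check of the hairpin. In polysomal RNA it had 244 and 335 CPM (counts scaled to the TMM-corrected library size) in knockdown cells, against 875 and 877 CPM in scramble cells, which left 33.0% of the scramble mean. In total RNA it had 293 and 327 CPM in knockdown cells, against 794 and 785 CPM in scramble cells, which left 39.3%. EIF4G2 fell in polysomal RNA by edgeR's quasi-likelihood test (log2 fold change −1.60 ± 0.18, SE; adjusted p = 0.0276), and in total RNA it lay at −1.35 ± 0.18 with an edgeR adjusted p = 0.0504. Its polysomal edgeR adjusted p was above 0.05 when knockdown total replicate 1 (0.207), knockdown total replicate 2 (0.224), knockdown polysome replicate 1 (0.131), scramble polysome replicate 1 (0.102) or scramble polysome replicate 2 (0.107) was left out, while the edgeR log2 value stayed between −1.91 and −1.42. DESeq2 called EIF4G2 lower in both, with an adjusted p of 2.97e-14 in polysomal and 4.05e-10 in total RNA, and edgeR called it in total RNA on those 4 libraries alone (adjusted p = 0.0349).

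Polysome libraries held 18043714 to 24590030 counts and total libraries 18519382 to 23299332. Libraries of 1 group differed beyond counting noise, and some stood apart. The share of mitochondrially encoded genes was 7.12% of counts for scramble polysome replicate 1, whereas it was 14.5 to 17.5% for the rest of the polysome libraries. In total libraries it was 3.88 to 4.21%. Knockdown total replicate 1 had a median transcript length per count of 2729 nt, against 3001 to 3048 nt in the other total libraries. Fibroblast markers stood at unlike levels. In all libraries COL1A1 had 884 CPM or more, VIM 1092, THY1 199, COL1A2 40.0 and PDGFRB 15.9. COL3A1 ran from 0.81 to 51.5 CPM, LUM from 1.87 to 9.51 CPM and PDGFRA from 0.271 to 2.16 CPM. DCN and FAP stayed below 0.5 CPM. The summed level of the 10 fibroblast markers was 6013 to 6218 CPM in knockdown and 5458 to 5550 CPM in scramble total libraries. In polysome libraries it overlapped, at 6271 to 6926 CPM in knockdown and 5989 to 6876 CPM in scramble cells. Markers of other cell types also moved with the hairpin in part. The summed level of 4 epithelial markers was 2234 to 2265 CPM in knockdown and 3118 to 3194 CPM in scramble polysome libraries, nearly all of it KRT8 and KRT18, with EPCAM at most 2.38 CPM and CDH1 at most 0.165 CPM. In total RNA the same sum was 1161 to 1418 CPM in knockdown and 1358 to 1384 CPM in scramble libraries. The sum of 4 mural markers was 21.9 to 24.1 CPM in knockdown and 15.1 to 15.6 CPM in scramble polysome libraries, nearly all of it RGS5, with MYH11 at 0 in all libraries, and 15.4 to 15.8 CPM in knockdown and 19.1 to 20.6 CPM in scramble total libraries. That of 6 cardiomyocyte markers was 0.810 to 1.44 CPM in knockdown and 4.04 to 6.66 CPM in scramble polysome libraries, with MYL7 at up to 6.17 CPM, each other marker below 0.5 CPM, and MYH6 and MYH7 at 0. Endothelial sums were 7.39 to 14.9 CPM and leukocyte sums 0 to 0.527 CPM over all libraries. The part of these markers in the results was not tested. In bulk RNA, fewer cells of a kind and less RNA per cell cannot be told apart.

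**Figure D1:**
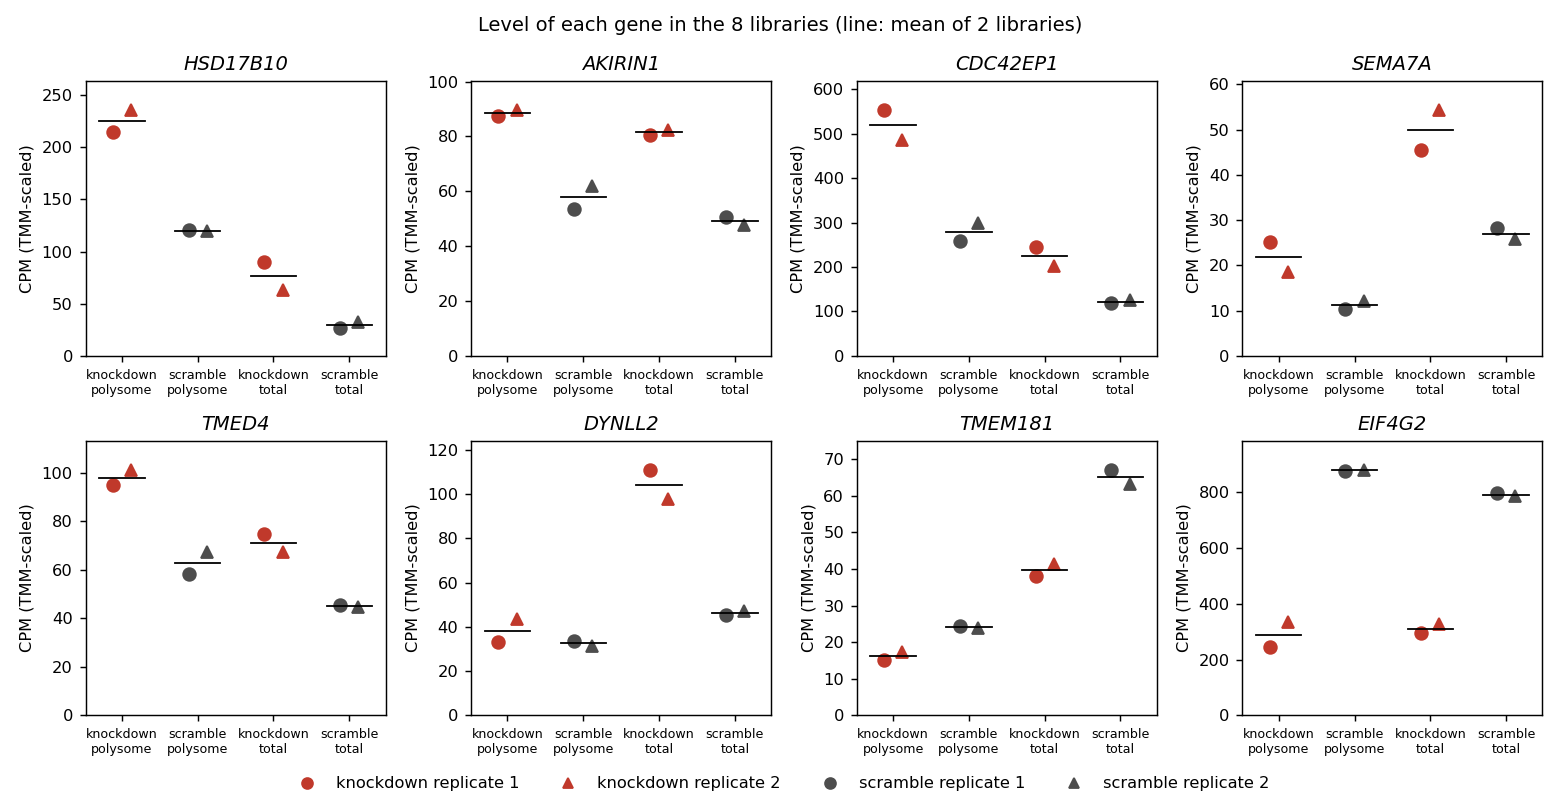
Level of each of the 7 genes and of EIF4G2 in the 8 libraries, in CPM of the TMM-scaled library on linear axes that start at 0, with circles for replicate 1, triangles for replicate 2 and a line at the mean. Knockdown libraries lie above scramble libraries in both fractions for HSD17B10, AKIRIN1, CDC42EP1, SEMA7A and TMED4, and below them for TMEM181, whereas DYNLL2 separates the hairpins in total RNA and not in polysomal RNA.

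Of the 7 genes, 6 were higher in knockdown cells in total RNA and TMEM181 was lower. In total RNA the knockdown libraries lay above both scramble libraries for 6 genes, as for 24.8% of all tested genes, and below them for 1, as for 23.1%. In polysomal RNA they lay above for 5 (15.5% of tested genes), below for 1 (18.5%), and overlapped for 1, DYNLL2. HSD17B10, AKIRIN1, CDC42EP1, SEMA7A and TMED4 lay above in both fractions, as did 5.68% of tested genes, and TMEM181 lay below in both, as did 6.16%. The choice of the genes fixes these counts. By edgeR's adjusted p, 0% of tested genes were higher and 0% lower in total RNA, with 3.68% at an unadjusted p under 0.05. In polysomal RNA 0.00616% were higher and 0.00616% lower, with 13.3% at an unadjusted p under 0.05. DESeq2 called 0.117% higher and 0.0431% lower in total RNA, and 0.579% higher and 0.826% lower in polysomal RNA. The median log2 difference of the 7 genes was 0.64 in polysomal and 0.88 in total RNA, beside −0.01 and 0.02 over all tested genes.

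HSD17B10 had the largest difference of the 7 in total RNA. It stood at 215 and 235 CPM in knockdown polysomes, against 121 and 119 CPM in scramble polysomes. In total RNA it had 89.6 and 63.6 CPM in knockdown cells, against 26.7 and 32.7 CPM in scramble cells. Each knockdown library was above each scramble library, and the gap between the knockdown total libraries was wider than that of any other group of this gene. The knockdown mean was 1.88-fold the scramble mean in polysomes (log2 fold change 0.91 ± 0.18, SE) and 2.58-fold in total RNA (1.37 ± 0.18). When knockdown total replicate 1 was left out, which had the shortest median transcript length of the total libraries, the log2 value in total RNA was 1.10, and without knockdown total replicate 2 it was 1.59. HSD17B10 itself has a transcript of 960 nt, longer than only 4% of 12658 tested protein-coding genes. The part of transcript length in the difference between these 2 libraries was not tested.

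In GRCh38 the gene occupies 53431258 to 53434373 of chromosome X, minus strand, and its nearest protein-coding neighbour is RIBC1, 138 bases away on the other strand. RIBC1 had 36 and 17 counts in knockdown and 24 and 32 in scramble polysome libraries, and 24 and 35 counts in knockdown and 23 and 25 in scramble total libraries, so that its counts overlapped between the hairpins in both fractions.

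DYNLL2 had the second largest difference in total RNA and the smallest in polysomal RNA. It stood at 33.0 and 43.3 CPM in knockdown polysomes, against 33.6 and 31.5 CPM in scramble polysomes, and the groups overlapped. In total RNA it had 111 and 97.6 CPM in knockdown cells, against 45.4 and 47.3 CPM in scramble cells, with a wide gap between the groups. The knockdown mean was 1.17-fold the scramble mean in polysomes (log2 fold change 0.23 ± 0.17, SE) and 2.25-fold in total RNA (1.17 ± 0.16). The polysomal difference minus the total difference was −0.94 ± 0.23 on the log2 scale, the widest of the 7. It was −1.19 when knockdown polysome replicate 2 was left out and −0.77 when replicate 1 of that group was. The polysomal difference alone was −0.04 and 0.38 in these 2 fits, so that its sign rested on knockdown polysome replicate 2. DYNLL2 has a coding sequence of 267 nt before the stop codon, among the shortest 1% of tested protein-coding genes, in a transcript of 6805 nt of which 6260 nt follow it. The gene spans 58083415 to 58095536 on the plus strand of chromosome 17.

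CDC42EP1 was the most abundant of the 7 by CPM. It had 552 and 485 CPM in knockdown polysomes, against 259 and 300.3 CPM in scramble polysomes. In total RNA it had 246 and 202 CPM in knockdown cells, against 118 and 125 CPM in scramble cells. The groups were apart in both fractions and the ratio was alike in both, 1.85-fold in polysomes (log2 fold change 0.89 ± 0.16, SE) and 1.84-fold in total RNA (0.88 ± 0.16). The difference between the 2 log2 values was 0.01 ± 0.23. CDC42EP1 lies on the plus strand of chromosome 22 from 37560447 to 37569405. LGALS2, 841 bases beyond its end on the other strand, had at most 16 counts in any library.

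SEMA7A was the least abundant of the 7 in scramble polysomes, by CPM and by CPM per kilobase. It had 25.2 and 18.5 CPM in knockdown polysomes, against 10.5 and 12.2 CPM in scramble polysomes. Total libraries held 45.5 and 54.2 CPM in knockdown cells, against 28.3 and 25.8 CPM in scramble cells. The groups did not overlap, and the knockdown polysome libraries were spread more widely than the rest on the log2 scale. The knockdown mean was 1.93-fold the scramble mean in polysomes (0.95 ± 0.20 on the log2 scale, SE) and 1.84-fold in total RNA (0.88 ± 0.19). The polysomal value was 0.68 when knockdown polysome replicate 1 was left out and 1.10 when replicate 2 of that group was. SEMA7A spans 74409289 to 74433958 on the minus strand of chromosome 15 and holds the gene of the microRNA MIR6881, which had 0 counts in all libraries.

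AKIRIN1 and TMED4 had knockdown differences of similar size in both fractions. AKIRIN1 stood at 87.4 and 89.4 CPM in knockdown polysomes, against 53.7 and 61.9 CPM in scramble polysomes. In total RNA AKIRIN1 had 80.6 and 82.3 CPM in knockdown cells, against 50.8 and 47.5 CPM in scramble cells. Its knockdown libraries were apart from its scramble libraries in both fractions, 1.53-fold in polysomes (0.61 ± 0.14 on the log2 scale, SE) and 1.66-fold in total RNA (0.73 ± 0.14). TMED4 had 94.9 and 101 CPM in knockdown polysomes, against 58.1 and 67.5 CPM in scramble polysomes. In total RNA TMED4 had 74.6 and 67.2 CPM in knockdown cells, against 45.6 and 44.8 CPM in scramble cells. The TMED4 groups were apart as well, 1.56-fold in polysomes (0.64 ± 0.14, SE) and 1.57-fold in total RNA (0.65 ± 0.14). The tagwise coefficient of variation of the fit, 0.108 for AKIRIN1 and 0.111 for TMED4, was lower than in all but 2% and 4% of tested genes. That share was 5% for TMEM181, 15% for CDC42EP1 and DYNLL2, 27% for HSD17B10 and 30% for SEMA7A. Genes chosen on a difference between groups may tend to a small spread, so these values are a description only. AKIRIN1 lies on chromosome 1 from 38991223 to 39006059 on the plus strand, and TMED4 on chromosome 7 from 44577894 to 44582287 on the minus strand. DDX56, 2843 bases from TMED4 on the same strand, had a log2 difference of 0.04 ± 0.14 in polysomal and 0.16 ± 0.14 in total RNA.

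TMEM181 was the gene of the 7 with less RNA in knockdown cells. It had 15.2 and 17.4 CPM in knockdown polysomes, against 24.3 and 23.9 CPM in scramble polysomes. Its total RNA stood at 38.1 and 41.4 CPM in knockdown cells, against 67.0 and 63.3 CPM in scramble cells. All knockdown libraries lay below the scramble libraries of their fraction, at 67.6% of the scramble mean in polysomes (log2 fold change −0.57 ± 0.16, SE) and at 61.1% in total RNA (−0.71 ± 0.15). TMEM181 spans 158536436 to 158635428 on the plus strand of chromosome 6. The pseudogene TATDN2P2 lies within it on the other strand and had at most 45 counts in any library, against 205 or more for TMEM181. DYNLT1, a dynein light chain gene 1046 bases beyond its end, had log2 differences of 0.03 ± 0.18 in polysomal and 0.16 ± 0.18 in total RNA.

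**Figure D2:**
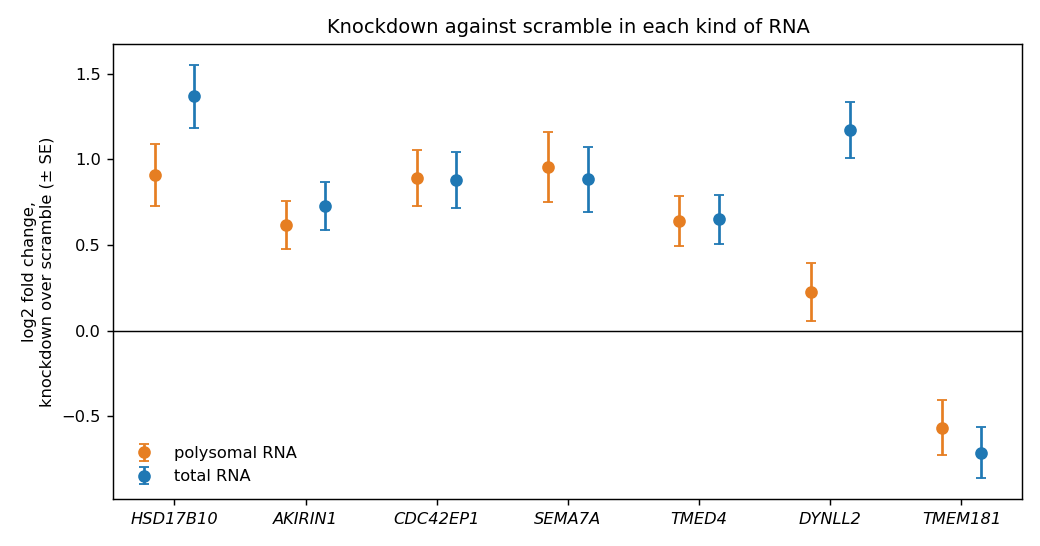
Log2 fold change of knockdown over scramble cells for each of the 7 genes, in polysomal RNA (orange) and in total RNA (blue), with bars of 1 standard error from the edgeR fit of all 8 libraries. CDC42EP1, SEMA7A and TMED4 have almost the same value in both kinds of RNA, HSD17B10 lies at 0.91 and 1.37, and DYNLL2 lies at 0.23 in polysomal and 1.17 in total RNA.

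The knockdown difference in polysomal RNA minus that in total RNA is built from the values that chose the genes and is given as a description. Polysomal minus total log2 differences were −0.46 ± 0.26 for HSD17B10, −0.11 ± 0.20 for AKIRIN1, 0.07 ± 0.28 for SEMA7A, −0.01 ± 0.20 for TMED4 and 0.15 ± 0.22 for TMEM181 (SE). The values of DYNLL2 (−0.94 ± 0.23) and HSD17B10 are not separated by their errors. HSD17B10 moved to −0.19 without knockdown total replicate 1 and to −0.69 without knockdown total replicate 2. Over all tested genes the median was −0.07, and edgeR's test called 0% higher and 0% lower, and 6.27% had an unadjusted p under 0.05. DESeq2 called 0.00616% higher and 0.0185% lower.

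The place of the 7 genes in polysomes was not itself the measure of choice. It was tested as polysomal against total RNA, averaged over both hairpins. The libraries whose levels chose the genes enter this average, so its p-values are not free of the choice. HSD17B10, CDC42EP1 and TMED4 were higher in polysomal RNA, SEMA7A, DYNLL2 and TMEM181 were lower, and AKIRIN1 did not pass. Within scramble cells alone edgeR called 6 of the 7 as well, 3 higher and 3 lower. Across all tested genes 33.8% were called higher and 40.1% lower by edgeR's adjusted p, and 75.9% had an unadjusted p under 0.05, so the share of 6 in 7 says little about these genes. DESeq2 called the same 6, against 32.8% of tested genes higher and 40.8% lower. All polysome libraries lay above all total libraries for 2 of the 7 (30.6% of tested genes) and below them for 3 (37.3%). The median transcript length per count was 1643 to 1807 nt in polysome and 2729 to 3048 nt in total libraries. Annotated transcripts of the genes called higher had 960 nt (HSD17B10), 2181 nt (CDC42EP1) and 2322 nt (TMED4). Those called lower had 3376 nt (SEMA7A), 6805 nt (DYNLL2) and 5390 nt (TMEM181), and AKIRIN1 had 2741 nt. The part of transcript length in these calls was not tested.

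HSD17B10 was the most enriched, with 119 to 235 CPM in polysome libraries and 26.7 to 89.6 CPM in total libraries (log2 fold change 1.79 ± 0.13, SE; edgeR adjusted p = 3.64e-07). Within knockdown cells its log2 value was 1.56 ± 0.18 and within scramble cells 2.02 ± 0.19. CDC42EP1 followed at 1.21 ± 0.12 (edgeR adjusted p = 2.67e-06), with 259 to 552 CPM in polysome and 118 to 246 CPM in total libraries. TMED4 lay at 0.47 ± 0.10 (edgeR adjusted p = 0.00147), and its polysome libraries, at 58.1 to 101 CPM, overlapped with its total libraries, at 44.8 to 74.6 CPM. AKIRIN1 lay at 0.18 ± 0.10 (edgeR adjusted p = 0.127).

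TMEM181 was the most depleted from polysomes, with 15.2 to 24.3 CPM there and 38.1 to 67.0 CPM in total RNA (log2 fold change −1.36 ± 0.11, SE; edgeR adjusted p = 6.91e-07). SEMA7A lay at −1.22 ± 0.14 (edgeR adjusted p = 1.21e-05), with 10.5 to 25.2 CPM in polysome and 25.8 to 54.2 CPM in total libraries. DYNLL2 lay at −0.98 ± 0.12 (edgeR adjusted p = 1.70e-05). That was −1.45 ± 0.17 within knockdown cells and −0.51 ± 0.16 within scramble cells (edgeR adjusted p = 0.0196 in scramble cells), so its size rested in part on the knockdown libraries. The scaling moved these values. TMM put the median of all tested genes at −0.18, and library totals without TMM put it at −1.20, a shift of −1.02. Under library totals HSD17B10 stayed higher at 0.76, and SEMA7A at −2.25, DYNLL2 at −2.01 and TMEM181 at −2.39 stayed lower, and these 4 kept their call. AKIRIN1 turned to −0.86 and TMED4 to −0.56, and CDC42EP1, at 0.18, no longer passed (edgeR adjusted p = 0.14). A change of scaling shifts all genes by nearly the same amount. Values relative to the median of all genes therefore had to stay alike and are no check of the calls. They were 1.96 under both scalings for HSD17B10 and 1.38 under both for CDC42EP1. For TMED4 they were 0.65 with TMM and 0.64 without, and for AKIRIN1 0.35 and 0.34. SEMA7A, DYNLL2 and TMEM181 lay −1.05, −0.80 and −1.19 from the median with TMM, and −1.05, −0.81 and −1.19 without it.

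**Figure D3:**
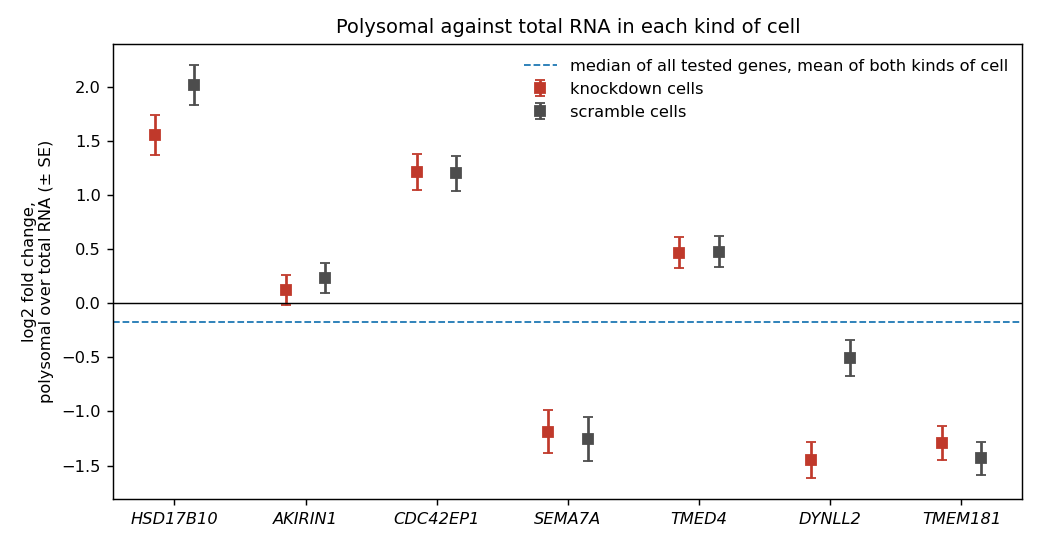
Log2 fold change of polysomal over total RNA for each of the 7 genes, within knockdown cells (red) and within scramble cells (grey), with bars of 1 standard error. The dashed line is the median of all tested genes at −0.18, and HSD17B10, CDC42EP1 and TMED4 lie above 0 in both kinds of cell while SEMA7A, DYNLL2 and TMEM181 lie below it.

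Between genes, levels were compared as CPM per kilobase of annotated exon. In knockdown polysomes CDC42EP1 (238 ± 21.9 CPM per kilobase, SD, n = 2) and HSD17B10 (235 ± 14.8) overlapped at the top. AKIRIN1 (32.3 ± 0.515) and TMED4 (27.6 ± 1.24) came next and apart, then SEMA7A (6.26 ± 1.35) and DYNLL2 (5.61 ± 1.07), which overlapped, and TMEM181 (3.02 ± 0.291). In scramble polysomes CDC42EP1 (128 ± 13.3) and HSD17B10 (125 ± 0.844) overlapped again, above AKIRIN1 (21.1 ± 2.1) and TMED4 (17.7 ± 1.86), with DYNLL2 (4.79 ± 0.213), TMEM181 (4.47 ± 0.0585) and SEMA7A (3.24 ± 0.349) below.

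In knockdown total RNA CDC42EP1 stood at 103 ± 14.1 and HSD17B10 at 79.8 ± 19.2 CPM per kilobase, and their libraries overlapped. AKIRIN1 (29.7 ± 0.446) and TMED4 (20.0 ± 1.47) were apart from their neighbours, DYNLL2 (15.3 ± 1.36) and SEMA7A (14.3 ± 1.76) overlapped, and TMEM181 was last at 7.38 ± 0.432. In scramble total RNA the order was CDC42EP1 (55.8 ± 2.38), HSD17B10 (30.9 ± 4.37), AKIRIN1 (17.9 ± 0.836), TMED4 (12.7 ± 0.165), TMEM181 (12.1 ± 0.495), SEMA7A (7.74 ± 0.494) and DYNLL2 (6.81 ± 0.198). TMED4 and TMEM181 were the closest neighbours there, with 12.6 and 12.4 CPM per kilobase in their nearest libraries. DYNLL2 was thus last in scramble total RNA and above SEMA7A and TMEM181 in its mean in knockdown total RNA, where TMEM181 was last.

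The 7 transcripts had few traits in common. In GENCODE release 29 the 5′ UTR held more G and C than the median of 66.33% in 7 of 7, from 69.8% in CDC42EP1 and TMED4 to 90.9% in TMEM181, whose annotated 5′ UTR has only 11 nt. The 5′ UTR was shorter than the median of 194 nt in 5 of 7, with 28 nt in HSD17B10, 40 nt in SEMA7A, 53 nt in TMED4 and 158 nt in AKIRIN1, and longer in CDC42EP1 (420 nt) and DYNLL2 (278 nt). An AUG triplet lay in the annotated 5′ UTR of AKIRIN1 (1), CDC42EP1 (2) and TMED4 (2), and in 0 copies in the other 4. The coding length was under the median of 1428 nt in 5 of 7, from 267 nt in DYNLL2 to 1998 nt in SEMA7A. These are annotated lengths, and the transcript ends used in these cells were not measured.

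The pattern of the hairpin over the 8 libraries, after the mean of each fraction was subtracted, was followed by other genes too. Among genes with a mean log2 CPM of at least 3, the 2 with the highest Pearson r to HSD17B10 over the 8 libraries were the histone variant gene H2AX (r = 0.986) and FBLIM1 (r = 0.986). For AKIRIN1 they were TMED4 (r = 0.985) and ARHGAP22 (r = 0.985), for CDC42EP1 USF2 (r = 0.991) and GAS2L1 (r = 0.988), and for TMED4 USF2 (r = 0.995) and RPUSD1 (r = 0.987). SEMA7A was nearest to REPIN1 (r = 0.996) and BMT2 (r = 0.987), and TMEM181 to the desaturase gene SCD (r = 0.984) and CDC23 (r = 0.984). DYNLL2 was nearest to ID3, an inhibitor of DNA binding, at r = 0.992, and to MORF4L1 at r = 0.975. ID3 had log2 differences of 0.25 in polysomal and 1.18 in total RNA, and MORF4L1 had 0.16 and 0.59. A high r with DYNLL2 picks genes with such uneven sizes, so this likeness is no separate result. The libraries are shared by all genes, and 42 of 8905 genes for DYNLL2 to 180 for CDC42EP1 had an r above 0.9, so these names are a description of likeness only.

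The families and partners of the 7 genes were examined in 10 lists of 118 genes, chosen by role, of which 110 were tested. In polysomal RNA edgeR's adjusted p called 0 of the 110 higher and 0 lower, and DESeq2 called 2. An unadjusted p under 0.05 was reached by 13 (11.8%). In total RNA edgeR called 0 higher and 0 lower, DESeq2 called 0, and 2 (1.82%) had an unadjusted p under 0.05. Both unadjusted shares are below those over all genes, 13.3% and 3.68%. The median log2 difference of the 110 was −0.09 in polysomal and −0.04 in total RNA.

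The other subunits of mitochondrial RNase P were not called in either RNA. TRMT10C, its methyltransferase, had log2 differences of 0.06 ± 0.23 in polysomal and −0.11 ± 0.23 in total RNA, and PRORP, its nuclease, had −0.72 ± 0.62 and 0.06 ± 0.47. PRORP was scarce in polysomes, at 0.270 and 1.70 CPM in knockdown and 1.95 and 1.13 CPM in scramble libraries, so its polysomal value says little. In the list of isoleucine breakdown and mitochondrial tRNA processing, which also held some genes of other pathways such as HADH, 0 of 17 were called by edgeR or DESeq2 in either RNA. At an unadjusted p under 0.05 there was 1 in polysomal RNA, HADH, and 0 in total RNA. ECHS1, the hydratase of the step just before HSD17B10, lay at −0.03 ± 0.16 in polysomal and 0.28 ± 0.16 in total RNA. HADH, of fatty acid oxidation, lay at −0.42 ± 0.18 and −0.0036 ± 0.18. Of the 8 tested hydroxysteroid dehydrogenase genes named after the same reaction, 0 were called by edgeR or DESeq2 in either RNA, and 2 in polysomal and 0 in total RNA had an unadjusted p under 0.05. They were HSD17B1, at 4.19 and 4.76 CPM in knockdown and 2.44 and 0.832 CPM in scramble polysomes, and HSD17B4. HSD17B4 lay at −0.48 ± 0.15 in polysomal RNA (edgeR adjusted p = 0.244) and −0.16 ± 0.15 in total RNA.

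AKIRIN2, the paralog of AKIRIN1, had 55.6 and 54.4 CPM in knockdown and 53.9 and 73.3 CPM in scramble polysomes, and 48.7 and 43.6 CPM in knockdown and 43.0 and 48.4 CPM in scramble total RNA. Its groups overlapped in both fractions. IPO9, the import receptor that works with AKIRIN2, lay at −0.41 ± 0.15 in polysomal and −0.16 ± 0.14 in total RNA (log2 difference, SE). CDC42EP4, an effector of CDC42 like CDC42EP1, lay at −0.25 ± 0.16 and −0.13 ± 0.15. Among the 11 tested genes of CDC42, its effectors and septins, neither edgeR nor DESeq2 called any (0 of 11) in either RNA. An unadjusted p under 0.05 was seen for 1 in polysomal RNA, SEPTIN8 at −0.42 ± 0.14, and for 0 in total RNA.

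Receptors of SEMA7A differed in how much of them could be counted. ITGB1, the beta chain of its integrin receptor, had log2 differences of −0.04 ± 0.19 in polysomal and −0.13 ± 0.19 in total RNA. PLXNC1, its plexin, was scarce, at 1.22 and 1.70 CPM in knockdown and 0.325 and 0.0594 CPM in scramble polysomes, and at 2.26 and 2.24 CPM in knockdown and 3.87 and 2.39 CPM in scramble total RNA. The polysomal difference of PLXNC1 was called higher by DESeq2 (adjusted p = 0.0353) and not by edgeR (log2 fold change 2.85 ± 0.70, SE; adjusted p = 0.181). Of 18 other semaphorins tested, 3 lay above 0 in polysomal and 7 in total RNA, beside 45.9% and 52.8% of all tested genes. Their medians were −0.32 and −0.08. Some were scarce, with SEMA4A at 0 CPM in all polysome libraries, and the list as a whole was not tested. SEMA4C was called lower in polysomes by DESeq2 (adjusted p = 0.0239) and not by edgeR (adjusted p = 0.161), with 3.17 and 3.91 CPM in knockdown and 7.04 and 7.07 CPM in scramble polysomes.

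Other members of the p24 family lay on both sides of 0. TMED9 lay at −0.41 ± 0.18 in polysomal and 0.11 ± 0.17 in total RNA (log2 difference, SE), and the 12 tested p24 and KDEL receptor genes had medians of 0.03 and 0.01. KDELR3, which returns escaped proteins to the endoplasmic reticulum, lay at −0.13 ± 0.14 and −0.35 ± 0.15. Of the 12, edgeR and DESeq2 called 0 in either RNA. An unadjusted p under 0.05 was reached by TMED9 alone in polysomal RNA and by KDELR3 alone in total RNA.

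DYNLL1, the close paralog of DYNLL2, had 1667 and 2207 CPM in knockdown and 1915 and 2027 CPM in scramble polysomes, and 254 and 187 CPM in knockdown and 200.4 and 207 CPM in scramble total RNA. Its groups overlapped in both fractions. How reads with several matches were treated is not given in the sources used here, so counts of such close paralogs carry that uncertainty. Unlike DYNLL2 it was called higher in polysomal than in total RNA (3.21 on the log2 scale, edgeR adjusted p = 3.49e-08). DYNLRB1, a dynein light chain of the roadblock family, had the largest total difference in its list, 1.07 ± 0.33, and lay at 0.67 ± 0.30 in polysomal RNA (edgeR adjusted p = 1 in total and 0.378 in polysomal RNA). Of 18 tested dynein and dynactin genes, 0 were called by edgeR or DESeq2 in either RNA. The unadjusted p was under 0.05 for 2 in polysomal RNA, DCTN1 at −0.51 ± 0.22 and DYNC1I1, and for DYNLRB1 in total RNA. DYNC1I1 was nearly absent, at 0 and 0 CPM in knockdown and 0.759 and 1.31 CPM in scramble polysomes. DYNLL2's other binding partners MYO5A, BMF, NEK9 and BCL2L11 lay at −0.47 ± 0.23, −0.10 ± 0.27, −0.30 ± 0.30 and 0.17 ± 0.20 in polysomal RNA, and at −0.30 ± 0.19, −0.45 ± 0.25, −0.03 ± 0.26 and −0.14 ± 0.18 in total RNA.

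GPR107 and GPR108, seven-pass proteins of the Golgi grouped here with TMEM181, lay at −0.38 ± 0.17 and 0.06 ± 0.15 in polysomal RNA, and at −0.24 ± 0.16 and 0.15 ± 0.15 in total RNA (log2 difference, SE). Of the 7 genes in that group 0 were called by edgeR or DESeq2 in either RNA. GPR107 and GPR180, at 0.44 ± 0.18, were the 2 with an unadjusted p under 0.05 in polysomal RNA, and there were 0 in total RNA.

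**Figure D4:**
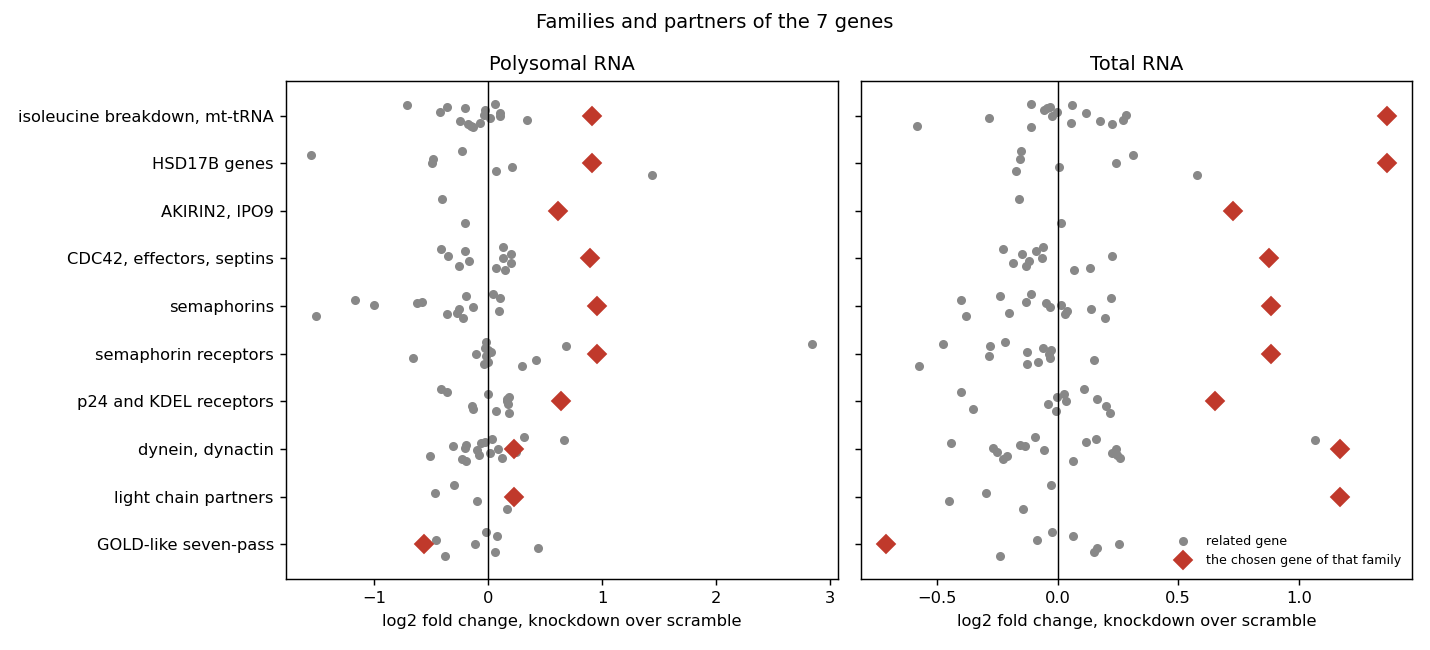
Log2 fold change of knockdown over scramble cells for 102 related genes with a mean log2 CPM of at least 0 (grey points), by list, in polysomal RNA (left) and total RNA (right), with the chosen gene of each family as a red diamond, so that HSD17B10, SEMA7A and DYNLL2 appear at 2 lists each. The 8 scarcer related genes are not drawn, and in total RNA the genes drawn lie closer to 0 than the chosen gene of their list, the nearest to it in its list of dyneins being DYNLRB1 at 1.07, whereas in polysomal RNA several lie farther out, PLXNC1 at 2.85 among them.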

How the data were processed

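Whole-number counts per gene symbol were used as the authors deposited them, without normalization. Per the submitters' processing notes, the tools were HISAT2 2.1.0, featureCounts, Subread 2.0.1, Trimmomatic 0.36, bcl2fastq 2.19.0, R 4.1.2 and DESeq2, with GRCh38. The annotation, strand setting and treatment of reads with several matches are not given in the sources used here. Groups came from the sample titles. Genes were filtered with filterByExpr over the 4 groups, scaled by TMM and fitted with edgeR 4.0.16 (R 4.3.3) as a robust quasi-likelihood model of all 8 libraries with a mean per group, which leaves 4 residual degrees of freedom. The Benjamini-Hochberg adjustment ran over 16228 genes at a threshold of 0.05. Log2 CPM used a prior count of 2, and each SE was obtained as the absolute log2 value over the root of the F statistic. DESeq2 1.42.0 was an alternative. Annotated lengths and neighbours are from GENCODE release 29 (GRCh38). The genes and lists were chosen with earlier results of these data known. Related genes were to be named as the closest paralogs and partners and the 2 with the smallest p per list and fraction. Those that did not reach an unadjusted p under 0.05 are mostly counted, not named.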

Additional observations from a re-analysis of the deposited data

How the results depend on the processing

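Within each fraction, the differences between hairpins in the 7 genes kept their sign in all refits, except DYNLL2 in polysomal RNA, at −0.04 without knockdown polysome replicate 2. In total RNA 94 of 98 refitted values, and in polysomal RNA 89 of 98, stayed within 1 SD of the replicates. The polysomal minus the total difference stayed within 1 SD in 82 of 91 refits and took the opposite sign in 16, which were 6 of CDC42EP1, 6 of TMED4 and 4 of SEMA7A, all near 0 at the start. Between fractions, HSD17B10, SEMA7A, DYNLL2 and TMEM181 kept their call in all 15 refits each, CDC42EP1 in 14 and TMED4 in 13. With library totals, AKIRIN1 (−0.856), not called before, and TMED4 (−0.561) turned, and CDC42EP1 (0.179) was not called (edgeR adjusted p = 0.14). TMED4 was not called without the filter on low counts (0.305, edgeR adjusted p = 0.05 after rounding), which left 5 of the 7 genes called.

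Counts of called genes moved more. In total RNA edgeR called 0 genes, also with any 1 library left out, DESeq2 26, edgeR without the filter 38 and edgeR on the 4 total libraries alone 10. In polysomal RNA edgeR called 2, DESeq2 228, edgeR without the filter 502 and edgeR with library totals 1. Leaving out 1 library gave 0 to 183 polysomal calls, with 183 without knockdown polysome replicate 2, 5 without either scramble total library, 1 without scramble polysome replicate 1 and 0 without each of the other 4. For the difference between fractions edgeR called 0, DESeq2 4 and edgeR without the filter 64, and leaving out 1 library gave 0 to 2. Of the related genes, 1 in total and 4 in polysomal RNA were called without the filter, 2 in polysomal RNA by DESeq2, and 0 to 1 with 1 library left out. The cause was not tested.

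With a replicate block, edgeR called 6 of the 7 genes between fractions, 3 genes in polysomal RNA and 0 in total RNA. Deviations of same-numbered libraries correlated at −0.0921 to 0.0264. With 2 libraries per group this cannot show whether same-numbered libraries came from the same culture, and the main fit used no pairing.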
